A study of Rattus norvegicus with 9 samples.

Results

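Astrocytes were followed in the frontal cortex of adult rats through 9 genes that are commonly used to mark this cell type: Gfap, Aqp4, Aldh1l1, S100b, Gja1, Gjb6, Sox9, Fgfr3 and Apoe. They were chosen by name, as genes of the astrocyte, at a time when earlier results of these data were known. The count table listed 37209 genes, of which 16837 passed a filter on low counts and were tested, and all 9 markers were among the latter. RNA had been sequenced from 9 rats. The 3 Control rats (A1, A2, A6) were raised with their mother. The 3 MS rats (B3, B4, B6) went through maternal separation for 4 h per day from postnatal day (PND) 1 to 21. The 3 MS+EA rats (C3, C10, C16) had the same separation and then received electroacupuncture, current passed between acupuncture needles, at GV20 and GV29 from PND 61 to 81. All were male Wistar rats of 14 weeks. By the methods of the study, Control and MS rats were anaesthetised with isoflurane without needles, so that needling and current cannot be told apart here. Nothing in the sources used here ties the rats to litters, and the p-values therefore measure the spread between these 9 rats.

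Astrocytes tile the cortex and reach both synapses and blood vessels with their processes. They take up glutamate and potassium, are joined to each other by gap junctions, line vessels with endfeet that are rich in water channels, and supply lipoproteins and metabolites to neurons. The 9 markers report on different sides of the cell. Gfap encodes an intermediate filament of the cytoskeleton, and its RNA commonly rises when astrocytes become reactive. Aqp4 encodes the endfoot water channel, Gja1 and Gjb6 encode the gap junction proteins connexin 43 and connexin 30, Aldh1l1 a folate enzyme, S100b a calcium-binding protein, Sox9 a transcription factor, Fgfr3 a receptor for fibroblast growth factors, and Apoe the main apolipoprotein of the brain. In bulk tissue, fewer astrocytes and less RNA per astrocyte cannot be told apart.

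Of the 9 markers, 8 had a promoter window in the RefSeq table of build GRCr8, which holds 250 bases before and 50 bases after each listed start, and 5 windows are shown because their genes carry the comparisons that follow. Gfap was the marker that varied most between rats, and Gja1 and Gjb6 were the pair with the highest Pearson correlation. S100b was the one marker whose MS and MS+EA rats did not overlap on the scaled levels used here. Fgfr3 had the lowest p-value in both comparisons of MS+EA. Each window is written 5′ to 3′ on the strand of the gene, and capitals mark matches, on either strand, to 7 short motifs: the TATA box TATAAA, the CCAAT box, the GC box GGGCGG, the AP-1 element TGANTCA, the STAT element TTCNNNGAA, the SOX element ACAAAG and the E-box CAGCTG.
Gfap, chr10:88361612-88361911, minus strand: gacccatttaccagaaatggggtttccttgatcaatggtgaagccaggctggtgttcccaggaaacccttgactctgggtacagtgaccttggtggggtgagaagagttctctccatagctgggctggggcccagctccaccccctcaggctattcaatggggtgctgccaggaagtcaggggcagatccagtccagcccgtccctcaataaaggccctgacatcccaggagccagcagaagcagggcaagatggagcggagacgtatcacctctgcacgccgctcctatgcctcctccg
Gja1, chr20:36302314-36302613, plus strand: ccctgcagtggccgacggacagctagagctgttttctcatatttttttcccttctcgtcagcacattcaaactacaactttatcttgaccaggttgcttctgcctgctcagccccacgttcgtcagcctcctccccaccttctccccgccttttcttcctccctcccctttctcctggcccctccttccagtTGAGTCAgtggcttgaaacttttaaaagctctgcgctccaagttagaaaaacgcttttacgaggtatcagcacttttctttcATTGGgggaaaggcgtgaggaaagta
Gjb6, chr15:35410089-35410388, minus strand: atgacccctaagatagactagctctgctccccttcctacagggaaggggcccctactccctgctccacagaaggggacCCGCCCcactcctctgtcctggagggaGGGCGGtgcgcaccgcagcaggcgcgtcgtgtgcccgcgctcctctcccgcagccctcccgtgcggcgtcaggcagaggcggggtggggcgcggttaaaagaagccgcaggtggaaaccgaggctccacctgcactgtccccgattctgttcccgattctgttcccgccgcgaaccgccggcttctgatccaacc
S100b, chr20:12381032-12381331, minus strand: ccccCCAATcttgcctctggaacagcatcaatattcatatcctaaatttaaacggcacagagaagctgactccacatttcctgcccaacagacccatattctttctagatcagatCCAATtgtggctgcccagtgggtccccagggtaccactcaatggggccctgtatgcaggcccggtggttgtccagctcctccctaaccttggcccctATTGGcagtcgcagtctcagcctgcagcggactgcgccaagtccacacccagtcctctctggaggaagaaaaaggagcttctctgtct
Fgfr3, chr14:81227160-81227459, minus strand: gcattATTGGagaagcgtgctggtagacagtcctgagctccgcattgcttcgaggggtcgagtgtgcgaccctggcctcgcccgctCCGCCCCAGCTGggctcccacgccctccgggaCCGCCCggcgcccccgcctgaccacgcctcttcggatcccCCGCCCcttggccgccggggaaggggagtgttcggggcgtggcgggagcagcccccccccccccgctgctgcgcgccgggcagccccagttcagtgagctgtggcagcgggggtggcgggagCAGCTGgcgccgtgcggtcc

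The Gfap window held 0 matches to these letters, the S100b window 3 CCAAT boxes and the Gjb6 window 2 GC boxes. The Gja1 window had an AP-1 match that begins 58 bases before the start and a CCAAT box on the opposite strand. In the Fgfr3 window there were 6 matches, of which 3 were GC boxes, 2 were E-boxes and 1 was a CCAAT box, and one GC box lies directly before an E-box. Among all 33469 windows of the table, 37.5% held a CCAAT box, 33.1% a GC box, 15.1% the E-box and 7.33% the AP-1 element, against 14.2% for the TATA box, 18.8% for the SOX element and 8.87% for the STAT element. The connexin pair shared none of these motifs in the windows shown. A match is a description of the letters and was not tested for binding.

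Total counts were 16153292 to 19007907 in Control, 16106381 to 17243320 in MS and 12479905 to 14913736 in MS+EA rats, so that the MS+EA libraries were the shallowest and long non-coding RNA took a larger share of them, 0.976% to 1.13% against 0.798% to 0.908% in Control. The lowest count of any marker was 285, for Aldh1l1, where counting error alone is 5.92%, and the part of depth in the differences given here was not tested. Levels are in CPM, a gene's share of the TMM-scaled library total, and the 9 markers took 0.347% to 0.506% of the counts of a library. Transcript length was not used, so a ratio between genes is compared between rats only and says nothing of which gene has more RNA per length. Differences are log2 fold changes (log2FC) from edgeR's quasi-likelihood test over all 16837 genes with Benjamini-Hochberg adjusted p-values, and a gene was called changed where that adjusted p was below 0.05 and the levels differed more than 1.5-fold.

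None of the 9 markers was called changed in any of the 3 comparisons. For MS against Control, 4 of the 16837 genes were called (0.0238%), for MS+EA against MS 3 genes (0.0178%), and for MS+EA against Control 230 genes (1.37%). With no adjustment, at p under 0.05, 0 of the 9 markers passed for MS against Control, where 10.6% of the tested genes did (7.06% higher and 3.55% lower). Between MS+EA and MS rats, 1 marker passed, Fgfr3, against 12.4% of the tested genes (6.01% higher and 6.42% lower), and for MS+EA against Control 2 passed, Fgfr3 and Apoe, against 22.5%. DESeq2 called 0 of the 9 in each comparison with the same thresholds. The markers split 6 above and 3 below 0 for MS against Control, with a median log2FC of 0.09, while 49.7% of all tested genes lay above and 50.3% below 0 with a median of -0.00. They split 2 above and 7 below 0 for MS+EA against MS, with a median of -0.18, where 49.9% of all genes lay below 0. Between MS+EA and Control rats, 4 lay above and 5 below 0, with a median of -0.08, where 50.9% and 49.1% of all genes did. The comparisons share rats and are not independent of each other.

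**Figure D1:**
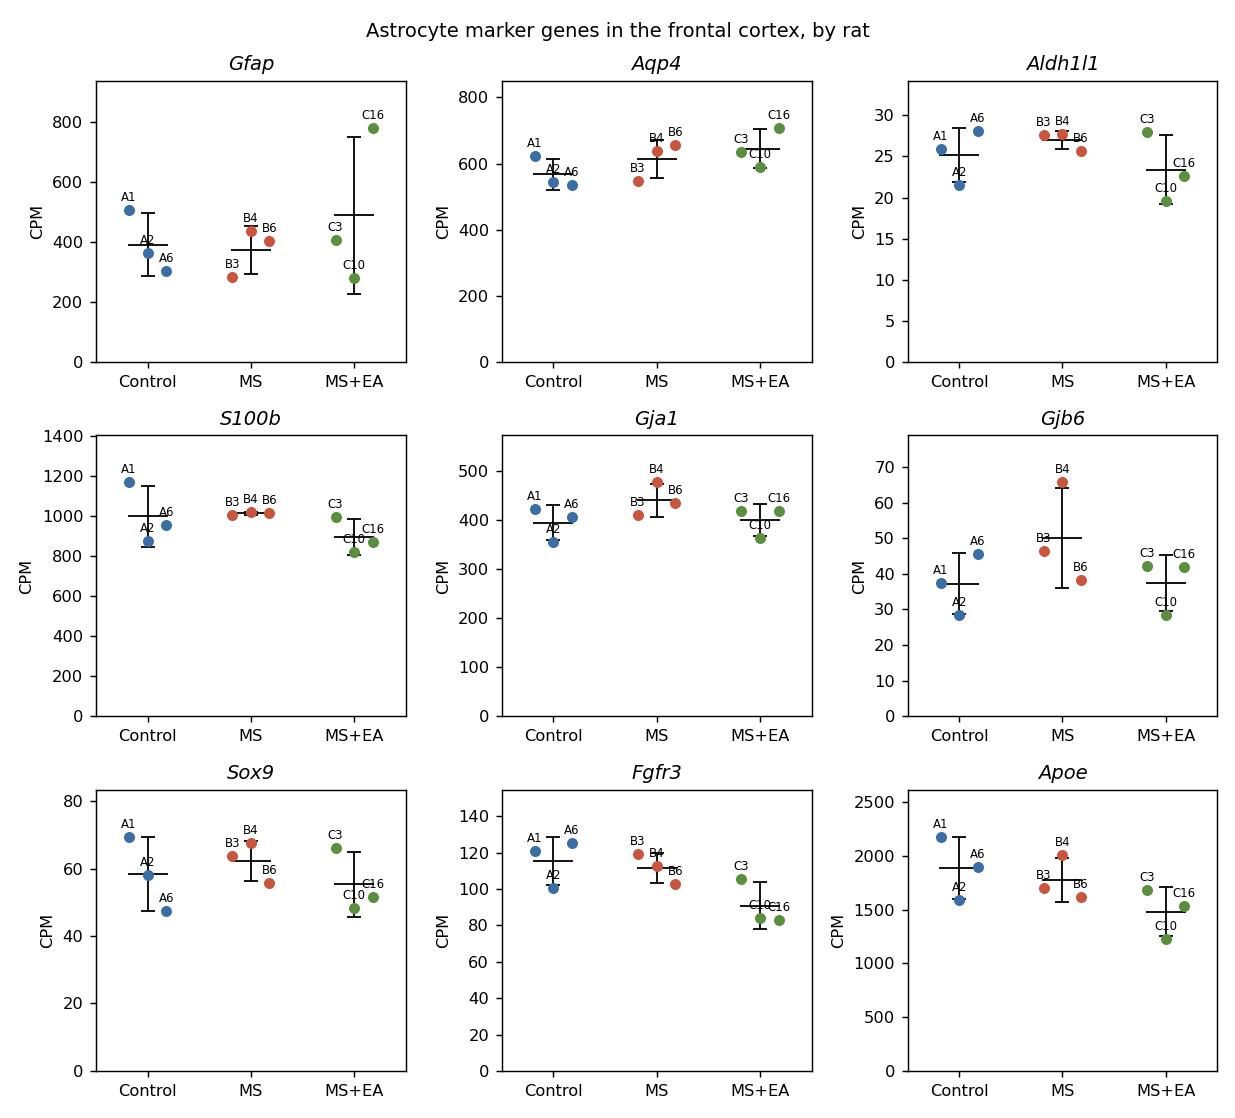
Level of each astrocyte marker gene in CPM (vertical axis of each panel, from 0) in the 9 rats of the Control, MS and MS+EA groups; points are rats, and bars show the group mean with its SD. The groups overlap for most markers, and the MS+EA rat C16 stands highest for Gfap at 781 CPM.

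Gfap, the filament that marks reactive astrocytes, differed more within groups than between them. Its level was 507, 362 and 304 CPM in Control rats A1, A2 and A6. It was 285 CPM in B3, 436 CPM in B4 and 405 CPM in B6 of the MS group, and MS+EA rats C3, C10 and C16 had 406, 280 and 781 CPM. The MS+EA group thus held both the highest and the lowest Gfap level of the series. The means were 391 ± 105 CPM in Control, 375 ± 79.9 CPM in MS and 489 ± 261 CPM in MS+EA rats (SD, n = 3 each). From low to high the order was MS, Control, MS+EA, and no neighbours in this order differed beyond their spread. For MS+EA against MS the log2FC was 0.38 (SE 0.300, 95% interval -0.27 to 1.03, edgeR adjusted p = 0.638), and without C16 it was -0.13. Against Control, MS+EA had a log2FC of 0.32 (adjusted p = 0.569) and -0.19 without C16. MS and Control differed by -0.06 (interval -0.71 to 0.59, adjusted p = 0.967). The intervals leave room for a change of more than 1.5-fold in each comparison.

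Aqp4, the water channel of the endfoot, had the narrowest range of the markers, with a highest level 1.32 times the lowest over the 9 rats against 1.34 times for Gja1 and 2.79 times for Gfap. Control rats had 622, 545 and 534 CPM, MS rats 547, 639 and 656 CPM, and MS+EA rats 636, 590 and 708 CPM. Mean levels were 567 ± 48.0, 614 ± 58.8 and 645 ± 59.5 CPM (SD, n = 3), in the order Control, MS, MS+EA, and neighbouring groups overlapped. The difference between MS+EA and Control was 0.18 (interval -0.01 to 0.38, edgeR adjusted p = 0.259), that between MS and Control 0.11 (adjusted p = 0.699), and that between MS+EA and MS 0.07 (adjusted p = 0.793). C16 again had the highest value. Among the 13 genes of the endfoot and the dystrophin complex that anchors Aqp4, 0 were called in any comparison. The laminin chain genes Lama2 and Lamb2 had log2FC of 0.79 (adjusted p = 0.280) and 0.48 (adjusted p = 0.408) in MS against Control.

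The connexin genes Gja1 and Gjb6 had their highest means in MS rats. Gja1 stood at 422, 355 and 407 CPM in Control, 410, 477 and 435 CPM in MS, and 419, 363 and 418 CPM in MS+EA rats. Gjb6 was at 37.5, 28.4 and 45.6 CPM in Control, 46.3, 65.7 and 38.2 CPM in MS, and 42.2, 28.4 and 41.9 CPM in MS+EA rats. For both genes the highest rat was B4, and all groups overlapped. Gja1 had means of 395 ± 35.4, 441 ± 33.7 and 400 ± 32.2 CPM, with a log2FC of 0.16 for MS against Control (interval -0.03 to 0.35, edgeR adjusted p = 0.535) and -0.14 for MS+EA against MS (adjusted p = 0.537). Gjb6 had means of 37.2 ± 8.58, 50.1 ± 14.1 and 37.5 ± 7.90 CPM, with 0.43 for MS against Control (SE 0.210, interval -0.03 to 0.88, adjusted p = 0.495) and -0.42 for MS+EA against MS (SE 0.212, interval -0.88 to 0.04, adjusted p = 0.440). Without B4, these values were 0.10 and -0.07 for Gja1 and 0.18 and -0.17 for Gjb6. For Gja1 they were also smaller without A2, at 0.08 for MS against Control, and without C10, at -0.07 for MS+EA against MS. MS+EA and Control were close, at 0.02 for Gja1 (interval -0.17 to 0.21) and 0.01 for Gjb6 (interval -0.45 to 0.47). Gjb6 counts were 9.37% ± 1.65 of those of Gja1 in Control, 11.3% ± 2.49 in MS and 9.31% ± 1.29 in MS+EA rats (SD, n = 3).

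Other junction genes, 11 tested of 12 listed, gave 0 calls. Gjb2, which encodes connexin 26 and is made by both astrocytes and the meninges, was at 6.68, 4.45 and 4.47 CPM in Control, 7.40, 44.4 and 11.4 CPM in MS, and 19.4, 9.10 and 21.2 CPM in MS+EA rats. Its log2FC of 2.01 for MS against Control (edgeR adjusted p = 0.189) stood beside meningeal fibroblast markers whose sum was also highest in B4. Tjp1, the scaffold that binds connexin 43, had 0.30 for MS+EA against Control (adjusted p = 0.0359), under the fold threshold. Panx1, a related channel gene, had -0.39 for MS+EA against MS (adjusted p = 0.236), and Gjc3, a myelin connexin, 0.42 (adjusted p = 0.425).

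S100b, a calcium-binding protein that astrocytes also secrete, was 1167, 875 and 953 CPM in Control rats, 1005, 1019 and 1013 CPM in MS rats, and 995, 818 and 870 CPM in MS+EA rats. On TMM-scaled CPM every MS+EA rat lay below every MS rat, which was so for 9.60% of all tested genes, while 8.27% had every MS+EA rat above. The gap was narrow, from 995 CPM in C3 to 1005 CPM in B3, and C3 had the largest TMM factor, 1.04. Unscaled, S100b took 14353 of 13893150 counts in C3 and 16315 of 16106381 in B4. C3 thus lay above B4 without the scaling, and the groups overlapped. With the scaling, S100b was the single marker without overlap in any comparison. For MS against Control 0 of 9 markers were without overlap, where 1689 of the 16837 genes (10%) lay above and 7.53% below, and for MS+EA against Control 0 of 9, where 13.0% lay above and 12.9% below. Mean levels were 998 ± 151, 1012 ± 7.14 and 894 ± 91.0 CPM. The log2FC was -0.18 for MS+EA against MS (interval -0.40 to 0.04, edgeR adjusted p = 0.488), -0.16 against Control (adjusted p = 0.379, and -0.03 without A1), and 0.02 for MS against Control (adjusted p = 0.968). On GRCr8 the S100b gene overlaps Dip2a, and the sources used here do not state whether the counting used strand, so the S100b values are uncertain to that extent. Among 8 tested genes of the S100 family and its receptor, out of 14 listed, 0 were called. S100a11 had a log2FC of 1.45 (adjusted p = 0.425) and S100a6 1.16 (adjusted p = 0.587) for MS against Control, both from levels of a few CPM, and S100a6 and S100a4 had 1.22 (adjusted p = 0.453) and 0.86 (adjusted p = 0.514) for MS+EA against MS.

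Aldh1l1, which oxidises a folate intermediate, had 25.9, 21.6 and 28.1 CPM in Control, 27.6, 27.7 and 25.7 CPM in MS, and 28.0, 19.6 and 22.6 CPM in MS+EA rats. Means of 25.2 ± 3.31, 27.0 ± 1.14 and 23.4 ± 4.25 CPM overlapped. The log2FC was 0.10 for MS against Control (interval -0.19 to 0.39, edgeR adjusted p = 0.833), -0.21 for MS+EA against MS (interval -0.50 to 0.09, adjusted p = 0.556) and -0.10 for MS+EA against Control (adjusted p = 0.697). In the rest of folate metabolism, 15 genes tested of 17 listed, 0 were called. The lowest adjusted p-values for MS+EA against MS there were those of Shmt1, a cytosolic enzyme of serine and folate, at 0.89 (adjusted p = 0.275), and of the mitochondrial Mthfd2 at -0.66 (adjusted p = 0.286), while MS against Control gave -0.28 for Mthfd1l (adjusted p = 0.556) and 0.31 for the folate carrier gene Slc19a1 (adjusted p = 0.585). Shmt1 and Mthfd2 had low means, 1.42 and 3.96 CPM in MS and 2.64 and 2.51 CPM in MS+EA rats.

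Sox9, the transcription factor that directs glial fate and stays on in astrocytes, was 69.4, 58.2 and 47.4 CPM in Control, 63.6, 67.4 and 55.6 CPM in MS, and 66.0, 48.2 and 51.5 CPM in MS+EA rats. The groups overlapped in each comparison, with means of 58.3 ± 11.01, 62.2 ± 6.02 and 55.3 ± 9.49 CPM and log2FC of 0.09 for MS against Control (edgeR adjusted p = 0.865), -0.17 for MS+EA against MS (interval -0.48 to 0.14, adjusted p = 0.659) and -0.08 for MS+EA against Control (adjusted p = 0.794). Of the glial transcription factors, 20 were tested of 21 listed and 0 were called. Nfib, a nuclear factor of glial development, had a log2FC of 0.18 (adjusted p = 0.466) for MS against Control and 0.35 (adjusted p = 0.0348) for MS+EA against Control, under the fold threshold. Hes5, a target of Notch signalling, had -0.86 (adjusted p = 0.322) and Nfix -0.15 (adjusted p = 0.376) for MS+EA against MS, and Sox8 had -0.23 (adjusted p = 0.409) for MS against Control.

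Fgfr3 had the lowest p-value of the 9 markers in both comparisons of MS+EA, though not in MS against Control. It was 121, 100 and 125 CPM in Control, 119, 113 and 102 CPM in MS, and 106, 84.1 and 82.8 CPM in MS+EA rats. The means were 115 ± 13.2, 111 ± 8.40 and 90.8 ± 12.8 CPM, and C3 was the MS+EA rat that kept the groups overlapping. For MS+EA against Control the log2FC was -0.35 (SE 0.108, interval -0.58 to -0.11, edgeR adjusted p = 0.0809), which did not pass the threshold. Its adjusted p was 0.0296 with DESeq2 and 0.0177 when all genes with at least 1 count were tested, and the fold change stayed under 1.5 in both. For MS+EA against MS the log2FC was -0.29 (SE 0.108, interval -0.53 to -0.06, adjusted p = 0.318), and for MS against Control -0.05 (interval -0.28 to 0.18, adjusted p = 0.906).

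In the fibroblast growth factor pathway, with 19 genes tested of 22 listed, 0 were called. Fgfr2, another receptor of the family, went from 100 ± 1.99 to 122 ± 8.82 CPM (SD, n = 3) between MS and MS+EA rats, a log2FC of 0.28 (edgeR adjusted p = 0.205), with the sign opposite to that of Fgfr3. Etv5, a transcription factor induced by this signalling, had -0.29 (adjusted p = 0.260). For MS against Control the ligand gene Fgf2 had 0.41 (adjusted p = 0.457) and Spred2, an inhibitor of the pathway, -0.15 (adjusted p = 0.457).

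Apoe, which carries cholesterol from astrocytes to neurons, stood at 2174, 1592 and 1899 CPM in Control, 1706, 2006 and 1619 CPM in MS, and 1683, 1230 and 1539 CPM in MS+EA rats. Means of 1888 ± 291, 1777 ± 203 and 1484 ± 231 CPM put the groups in the order Control, MS, MS+EA from high to low, and neighbours overlapped. The log2FC for MS+EA against Control was -0.35 (SE 0.130, interval -0.63 to -0.07, edgeR adjusted p = 0.136). DESeq2 gave an adjusted p of 0.0480 and the test of all genes with at least 1 count 0.0255, with the fold change under 1.5. The log2FC was -0.26 for MS+EA against MS (interval -0.54 to 0.02, adjusted p = 0.435), or -0.14 without C10 and -0.16 without B4, and -0.09 for MS against Control (interval -0.37 to 0.19, adjusted p = 0.858).

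Set against the mean log2 CPM of the 9 markers in the same rat, Apoe was 3.05 to 3.17 log2 units higher in Control, 2.90 to 3.01 in MS and 2.80 to 2.90 in MS+EA rats. On this relative scale every MS rat and every MS+EA rat lay below every Control rat for Apoe. For MS against Control, Apoe was the 1 marker of 9 that did so, as did 7.95% of all tested genes. Between MS+EA and Control rats, 2 of 9 did, Fgfr3 and Apoe, as did 2.99% of all tested genes. Between MS+EA and MS rats, 0 of 9 did, with 1.05% of all tested genes. This scale was chosen after the levels were seen, and it received no test. The mean contains the 9 markers themselves, so the shares of all tested genes are not a like baseline for them. On plain CPM, 0 of 9 markers had every MS rat below every Control rat, against 7.53% of all tested genes. For MS+EA against Control it was also 0 of 9, against 12.9%. Of 21 tested genes for lipoprotein handling, out of 22 listed, 0 were called. Pltp, which transfers phospholipids between lipoproteins, had a log2FC of 0.27 for MS against Control (edgeR adjusted p = 0.409) and -0.45 for MS+EA against MS (adjusted p = 0.211). The receptor gene Lrp8 had 0.22 (adjusted p = 0.403) for MS against Control.

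**Figure D2:**
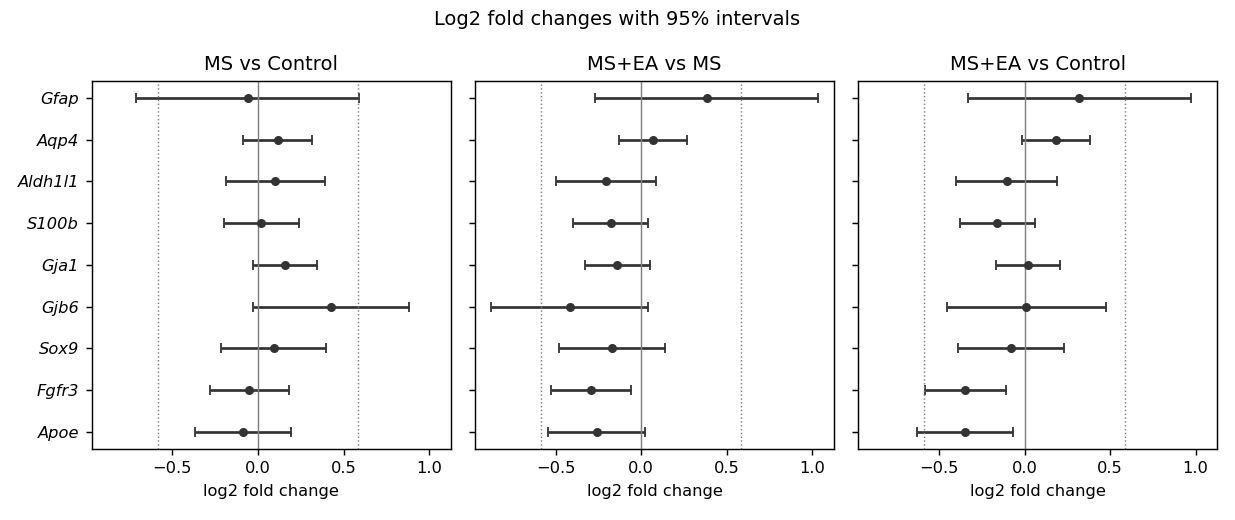
Log2 fold change (horizontal axis) of each astrocyte marker gene in the 3 comparisons, with 95% intervals from edgeR's quasi-likelihood fit; the dotted lines mark a fold change of 1.5. The intervals of Fgfr3 lie below 0 in both comparisons of MS+EA and that of Apoe in MS+EA against Control, and no marker passed the threshold on the adjusted p.

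Rats of one group differed more in these genes than in most genes of like level. The within-group SD of log2 CPM was 0.520 for Gfap, more than that of 99.9% of the 884 tested genes whose mean level was within 2-fold of it. For Gjb6 it was 0.355, above 98.3% of 4486 such genes, and for Apoe 0.209, above 96.7% of 122. The other 6 markers exceeded 77.1% to 94.4% of their peers, with Gja1 the lowest. C10 had the lowest level of the 9 rats for 5 of the 9 markers and was among the lowest 3 for 8, whereas B4 was among the highest 3 for 8 and A1 was the highest for 3. On the mean of the standardised log2 levels, C10 was at -1.35, A2 at -0.78, A1 at 0.75 and B4 at 0.91. C16 did not follow one direction: it was the highest rat for Gfap and Aqp4 and the lowest for Fgfr3. Its log2 ratio of Gfap to S100b was -0.15, against -1.82 to -1.20 in the other rats.

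Across the 9 rats most pairs of markers had a positive correlation. Of the 36 pairs, 31 had a Pearson r above 0 on log2 CPM, with a median of 0.48 and a range of -0.48 to 0.88, and 34 were above 0 when group means were subtracted. In an exact permutation test 11 pairs had p under 0.05, and 4 had an adjusted p under 0.05 over the 36 pairs, whereas 0 passed by Spearman's rho. No such counts were made for pairs of other tested genes, so whether the markers move together more than other genes was not tested. The connexin genes Gja1 and Gjb6 had r = 0.884 (exact permutation p = 0.0041, adjusted p = 0.0375) and rho = 0.450 (exact p = 0.230). Their r was 0.684 without the 2 rats farthest from the median of Gja1 and 0.831 within groups. Gfap and Aqp4 had r = 0.823 (exact permutation p = 0.0042, adjusted p = 0.0375), rho = 0.700 (exact p = 0.043), 0.795 without 2 rats and 0.913 within groups.

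A second pair of relations linked Apoe to S100b and Fgfr3. S100b and Apoe had r = 0.857 (exact permutation p = 0.0042, adjusted p = 0.0375), rho = 0.850 (exact p = 0.0061), 0.561 without 2 rats and 0.828 within groups. For Fgfr3 and Apoe, r was 0.831 (exact permutation p = 0.0037, adjusted p = 0.0375), rho was 0.900 (exact p = 0.0020), and r was 0.723 without 2 rats and 0.683 within groups. Pairs below 0 included Aqp4 with Fgfr3, at -0.476, and Gfap with Fgfr3, at -0.326. The number of pairs past the adjusted threshold was 0 without A2, B3, B4, B6, C3, C10 or C16, 5 without A6 and 9 without A1. All points share library and scaling, and the levels of any pair come from the same RNA.

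**Figure D3:**
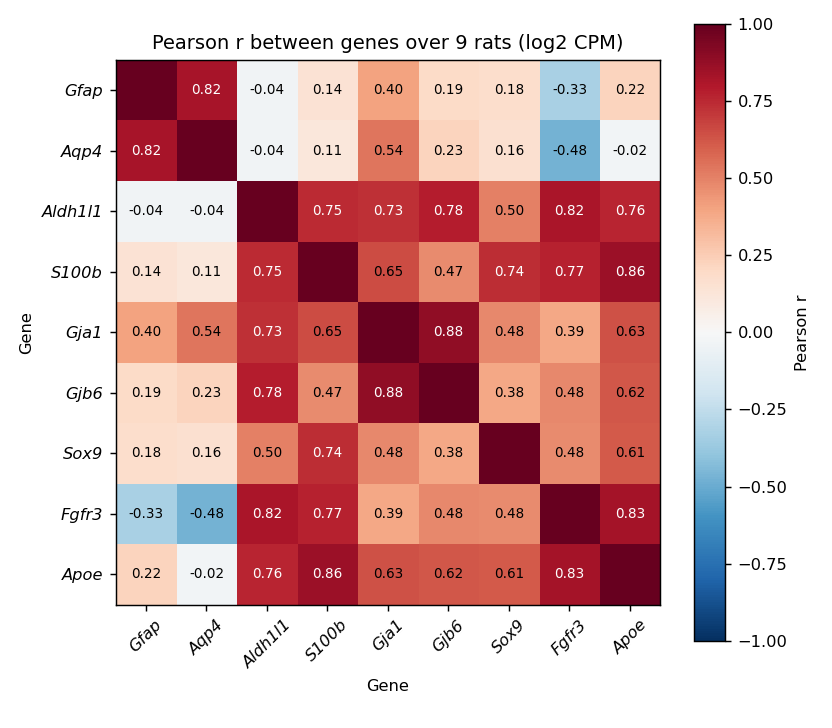
Pearson r between the log2 CPM of each pair of astrocyte marker genes over the 9 rats, with the colour scale from -1 to 1. The connexin pair Gja1 and Gjb6 has the highest value, 0.88, and Aqp4 with Fgfr3 the lowest, -0.48.

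**Figure D4:**
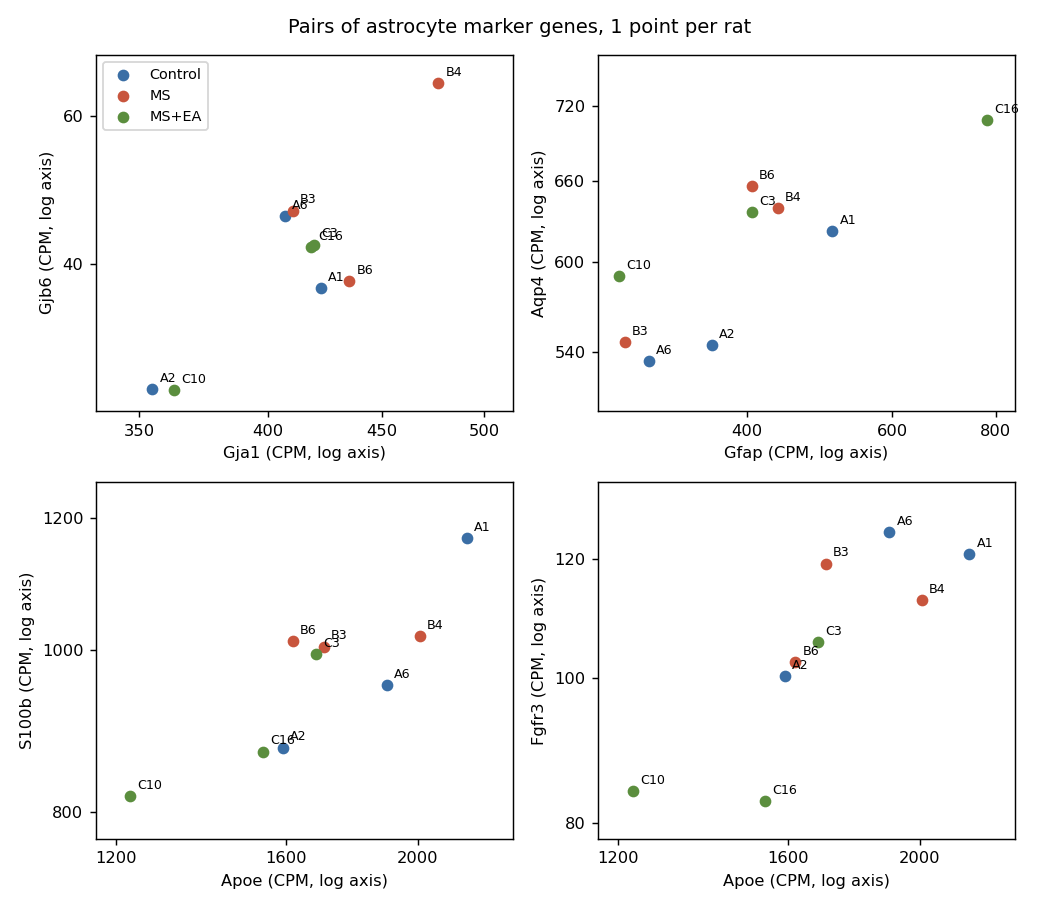
Level of 4 pairs of astrocyte marker genes in CPM, on log axes, with one point per rat coloured by group. B4 lies at the upper end for the connexin pair and C16 at the upper end for Gfap and Aqp4.

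Among the tested genes other than the 9 markers, Atp1b2, a sodium pump subunit made in astrocytes, followed the mean of the 9 markers most closely, with r = 0.985 over the 9 rats. It was at 479, 370 and 412 CPM in Control, 443, 490 and 422 CPM in MS, and 463, 316 and 419 CPM in MS+EA rats, lowest in C10 and highest in B4, the rats with the lowest and the highest mean of the 9 markers. Hadhb, an enzyme of fatty acid oxidation, followed at 0.974, then the ribosomal protein gene Rpl23a at 0.965, Aldh7a1 at 0.950 and Mdga1 at 0.946. For single markers the closest genes were Oaz1 for Fgfr3 at 0.993, Kat2a for Apoe at 0.979, Aldh1l1 with Mrpl2 at 0.976, S100b with Ttl at 0.971, Gfap with Mrps24 at 0.970, Gjb6 with Pxylp1 at 0.968, Gja1 with Fam163a at 0.959, Aqp4 with LOC690521 at 0.943 and Sox9 with Arhgdib at 0.942. LOC690521 had a mean of only 9.44 counts per rat, so counting error weighs more on its r than on the others. Each was picked from the top of a ranking drawn from the 16837 tested genes over 9 points and is given as a description.

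A wider list of 43 other astrocyte genes, all tested, had 0 calls. In MS against Control they split 24 above and 19 below 0, with 4 higher and 0 lower at an unadjusted p under 0.05, where 7.06% of all tested genes were higher and 3.55% lower. Among these 4 were Gjb2 and the urea transporter gene Slc14a1 at 0.38 (edgeR adjusted p = 0.285). In MS+EA against MS, 31 of 43 lay below 0, with a median log2FC of -0.13, and 9 were lower and 0 higher at an unadjusted p under 0.05, where 6.42% of all genes were lower. Those 9 were the glutamate transporter gene Slc1a2, the transporter gene of GABA Slc6a11, Mlc1, Gpr37l1, Ntsr2, Cbs, Sfxn5, Agt and Dio2. Agt, the precursor of angiotensin, was at 49.99, 36.9 and 45.1 CPM in Control, 56.9, 52.9 and 53.3 CPM in MS, and 43.4, 35.9 and 28.5 CPM in MS+EA rats. All MS+EA rats were below all MS rats for Agt, with a log2FC of -0.59 (edgeR adjusted p = 0.197). Gpr37l1, a receptor of astrocytes, had -0.46 (adjusted p = 0.241).

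In MS+EA against Control, 32 of the 43 lay below 0, with a median of -0.13, and 9 were lower and 4 higher at an unadjusted p under 0.05, where 10.6% of all genes were lower and 11.9% higher. The 4 higher genes were Gjb2 at 1.66 (edgeR adjusted p = 0.101), the filament gene Vim at 1.35 (adjusted p = 0.176), Slc39a12 at 0.95 (adjusted p = 0.163) and Slc4a4 at 0.25 (adjusted p = 0.102). For 3 of the 43 the adjusted p was under 0.05 with a fold change under 1.5, and 5.40% of all tested genes had an adjusted p under 0.05 at any fold. These were Cbs, an enzyme of homocysteine, at -0.55 (edgeR adjusted p = 0.0363), the neurotensin receptor gene Ntsr2 at -0.53 (adjusted p = 0.0137) and Gpr37l1 at -0.49 (adjusted p = 0.0490). Ntsr2 went from 71.7 ± 8.31 to 49.8 ± 5.04 CPM (SD, n = 3). Genes of reactive astrocytes, 18 tested of 21 listed, gave 0 calls in each comparison and medians of 0.25, -0.07 and 0.09 for MS against Control, MS+EA against MS and MS+EA against Control. Cp, which encodes ceruloplasmin, had a log2FC of 1.44 (adjusted p = 0.275) in MS against Control, Cd109 had 0.65 (adjusted p = 0.310) and Timp1 2.60 (adjusted p = 0.300) in MS+EA against MS, the latter from a few CPM. Lcn2 had -0.79 (adjusted p = 0.656) in MS against Control, from means of only 0.56 CPM in MS and 0.99 CPM in Control rats. The 13 other intermediate filament genes also had 0 calls, with Des, a filament of mural cells, at 0.98 (adjusted p = 0.327) and the neurofilament gene Nefm at 0.36 (adjusted p = 0.314) for MS against Control, and Des at -0.90 (adjusted p = 0.341) and Ina at -0.11 (adjusted p = 0.498) for MS+EA against MS.

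Sums of markers of other cell types are given beside these values as a description, with no test. The neuron markers of cortex were plentiful, and of 10 choroid plexus and ependymal markers 2 had no count and the sum was at most 19.6 CPM. Of 9 meningeal fibroblast markers, all with counts, the summed level was 62.0 to 82.3 CPM in Control rats, 81.7, 578 and 155 CPM in the MS rats in their order B3, B4, B6, and 208, 85.3 and 343 CPM in C3, C10 and C16. B4, the highest rat for both connexin genes, and C16, the highest for Gfap and Aqp4, thus had the highest meningeal sums of the series, and the part of the meninges in these levels was not tested. The same rats had the highest sums of the reactive astrocyte list, 245 CPM in B4 and 225 CPM in C16, where the other 7 rats were at 151 to 192 CPM. The 10 endothelial markers summed to 242 to 278 CPM in Control, 304 to 414 CPM in MS and 264 to 338 CPM in MS+EA rats, and the 10 mural cell markers to 179 to 201, 218 to 347 and 191 to 240 CPM. The 10 oligodendrocyte markers ran from 2281 to 3476 CPM in Control, 2013 to 3120 CPM in MS and 2211 to 4498 CPM in MS+EA rats.

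Neuron, precursor and microglia lists had their lowest mean sums in MS+EA rats. The 12 neuron markers summed to 9517 to 10251 CPM in Control, 9829 to 10386 CPM in MS and 8491 to 9670 CPM in MS+EA rats, with 5 above and 7 below 0 and a median log2FC of -0.09 for MS+EA against Control. The 3 of them with an adjusted p under 0.05, Slc17a7, Camk2a and Tubb3, had log2FC of -0.30, -0.36 and -0.32 for MS+EA against Control (edgeR adjusted p = 0.0207, 0.0387 and 0.0252), under the fold threshold. The 7 markers of oligodendrocyte precursors, a population that shares several genes with astrocytes, summed to 586 to 611, 596 to 626 and 541 to 552 CPM, and the 11 microglia markers to 365 to 409, 341 to 383 and 307 to 390 CPM in Control, MS and MS+EA rats. The 9 astrocyte markers summed to 4476 ± 615, 4470 ± 337 and 4119 ± 574 CPM (SD, n = 3), and these groups overlapped. Apoe and S100b, the markers with the highest CPM, weigh most in this sum. For MS+EA against MS, most lists of other cell types also lay mainly below 0, where 49.9% of all tested genes did. Neuron markers split 2 above and 10 below (median log2FC -0.14), endothelial markers 1 and 9 (-0.27) and mural cell markers 0 and 10 (-0.27). Precursor markers split 2 and 5 (-0.12), microglia markers 4 and 7 (-0.12) and meningeal fibroblast markers 1 and 8 (-0.35). Oligodendrocyte markers split 10 above and 0 below (0.40). The part of tissue composition in the astrocyte values was not tested.

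**Figure D5:**
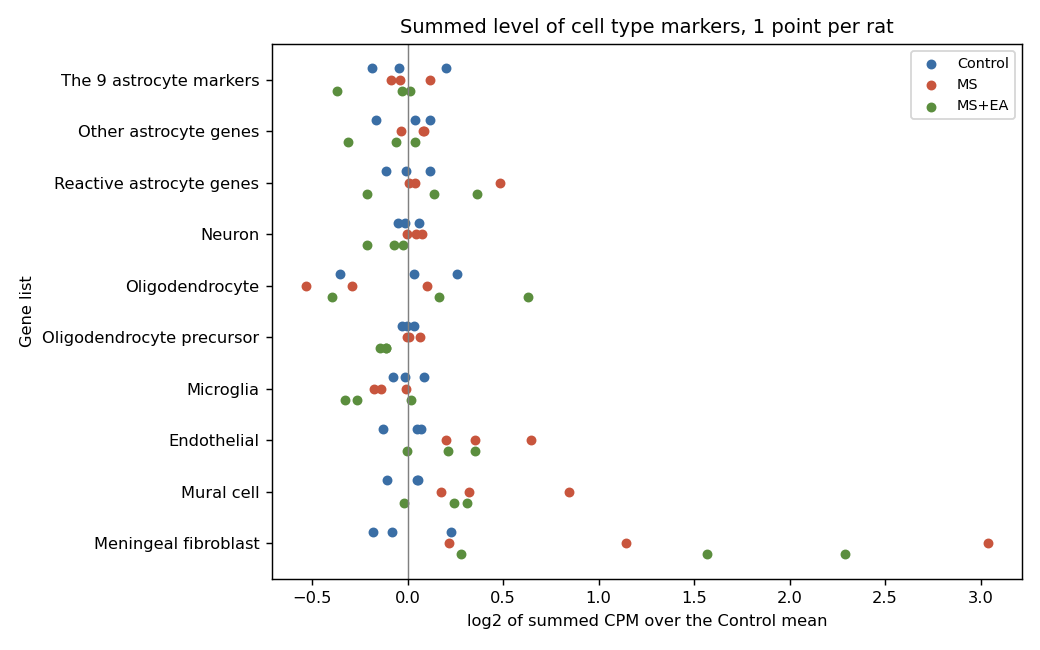
Summed CPM of the genes of each list, as log2 over the mean of the Control rats (horizontal axis), with one point per rat coloured by group. The meningeal sum reaches farthest to the right, in the MS rat B4 at 578 CPM, while the sum of the 9 astrocyte markers stays between 3461 and 5147 CPM.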

How the data were processed

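Total RNA of the frontal cortex of 9 rats, 3 per group by the labels, was sequenced after ribosomal RNA depletion. The deposited table holds whole-number counts per gene, which the authors made after alignment with HISAT2 2.0.4 to Rnor_6.0, and the counting program and its use of strand are not given in the sources used here. 

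Genes were kept by filterByExpr (minimum count 10), scaled by TMM and fitted in R 4.3.3 with edgeR 4.0.16 (quasi-likelihood F test, 1 mean per group over all 9 rats), with Benjamini-Hochberg adjustment over all 16837 genes. Calls needed an adjusted p under 0.05 and a fold over 1.5. Standard errors come from the F statistic, and 95% intervals from its 12.6 degrees of freedom. The study's own tool, EBSeq, was not used here. Levels are CPM with TMM sizes, and log2 CPM has a prior count of 2. Correlations were computed in Python 3.11.15 with scipy 1.17.1 by exact permutation of all pairings. The scripts were tested on simulated data. DESeq2 1.42.0, other scalings, filters and leaving out each rat were alternatives. The named genes of each list were the 2 with the lowest p-value in MS against Control and in MS+EA against MS, the 5 genes most like the mean of the markers and the 1 most like each. Genes named for an adjusted p under 0.05 in MS+EA against Control were chosen after their values were seen. So were the astrocyte genes named for an unadjusted p and the scale relative to the marker mean. Some genes that the rule names are not reported here. The markers and lists were chosen with earlier results of these data known.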

Additional observations from a re-analysis of the deposited data

How the results depend on the processing

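The 9 markers gave 0 calls under every alternative run, in each comparison. Over 432 alternative values of their 27 log2 fold changes, 410 kept their direction and 22 turned sign, all of the latter when 1 rat was left out, in 13 results. Leaving out 1 rat at a time, MS against Control ranged from -0.22 to 0.17 for Gfap, -0.0020 to 0.19 for Aldh1l1, -0.072 to 0.15 for S100b, -0.038 to 0.24 for Sox9, -0.15 to 0.0084 for Fgfr3 and -0.20 to 0.025 for Apoe. MS+EA against MS ranged from -0.13 to 0.66 for Gfap and -0.0066 to 0.13 for Aqp4. MS+EA against Control ranged from -0.19 to 0.60 for Gfap, -0.25 to 0.0091 for Aldh1l1, -0.050 to 0.084 for Gja1, -0.15 to 0.19 for Gjb6 and -0.22 to 0.065 for Sox9. The other results kept their sign. For MS against Control they ranged from 0.06 to 0.19 for Aqp4, 0.08 to 0.21 for Gja1 and 0.18 to 0.60 for Gjb6. For MS+EA against MS they ranged from -0.35 to -0.09 for Aldh1l1, -0.26 to -0.12 for S100b, -0.19 to -0.07 for Gja1, -0.58 to -0.17 for Gjb6, -0.31 to -0.08 for Sox9, -0.41 to -0.23 for Fgfr3 and -0.35 to -0.14 for Apoe. For MS+EA against Control they ranged from 0.11 to 0.26 for Aqp4, -0.24 to -0.03 for S100b, -0.46 to -0.28 for Fgfr3 and -0.45 to -0.23 for Apoe. With Fgfr3, the adjusted p for MS+EA against Control ran from 0.0177 to 0.247 over the alternatives, 0.0290 without C3, and with Apoe from 0.0255 to 0.419.

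Over all tested genes, the number called was more sensitive, and the cause was not tested. MS against Control had 4 calls, 70 with DESeq2, 207 with at least 1 count, 11 with the 6 rats compared, and 2 to 22 when 1 rat was left out. MS+EA against MS had 3 calls, 37 with DESeq2, 72 with at least 1 count, 0 with at least 10 counts in every rat, 1 with bias-adjusted deviances, 1 with the 6 rats compared, and 1 to 4 without 1 rat. MS+EA against Control had 230 calls, 469 with at least 1 count, 910 on the adjusted p alone, and 69 to 304 without 1 rat. The 4 marker pairs past the adjusted threshold became 0 to 9 without 1 rat. No paired analysis was made, because the sources used here state no pairing of rats across the groups. Depth limits Aldh1l1 most, with 285 counts in the shallowest case.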
